A study of Mus musculus with 16 samples.

Results

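The genes described here encode the apical and basolateral transporters by which the proximal tubule of the kidney recovers sodium, glucose, phosphate and bicarbonate, the PDZ scaffolds that hold them at the brush border, and the endocytic receptors megalin and cubilin. They were taken by symbol, 10 genes of 55414 in the count table, and all 10 had enough counts to be tested. Polyadenylated RNA from kidney cortex of wild-type C57BL/6J male mice, a common inbred laboratory strain, was sequenced in 4 groups of 4 libraries. Sedentary mice were the control. The exercised mice were made to run on a treadmill for 40 minutes at 70% of capacity over 1 day (called 24 h), over 1 week (1 wk) or over 2 weeks (2 wk). Neither the age of the mice nor the interval between the last run and death is given in the labels, which also leave unsaid whether the 24 h group was killed 1 day after a run and whether each library is a separate animal. The p-values therefore measure the spread among libraries, part of which may be technical. A letter in the sample titles differs between the exercised and the sedentary libraries and is not explained, so its meaning and exercise cannot be told apart.

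The proximal tubule takes back most of the filtered sodium, glucose, phosphate and bicarbonate. Its early segments carry the low-affinity, high-capacity glucose transporter SGLT2, its late straight segment the high-affinity SGLT1, and the sodium-proton exchanger NHE3 and the phosphate transporters NaPi-IIa and NaPi-IIc sit in the same brush border. Much of the known control of these proteins acts on their number at the membrane, through scaffolds and endocytosis, which messenger RNA does not measure.

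Totals ranged from 39766260 to 66852397 counts per library, and together the 10 genes took 1.09% to 1.54% of them. The label of cortex was set beside markers: 8 pan-proximal genes had summed levels of 22123 to 25789.8 CPM (counts relative to the TMM-scaled total of the library), and 5 inner medulla genes 52.1 to 124 CPM. Fxyd4 of the inner medulla list is also on the principal cell list, so that sum does not measure medulla alone. The share of counts from mitochondrially encoded genes was 2.16% to 2.71% in the 24 h libraries and 3.61% to 4.52% in the sedentary ones, without overlap. Of these genes mt-Co3 and mt-Atp6 had only 19 and 3 counts over all 16 libraries, so the share holds almost nothing of them. A measure of transcript length in each library, the median log2 level of genes with at least 8000 exon bases minus that of genes with at most 2000, each set against the mean of all 16 libraries, was 0.46 in 1 wk library 4 and 0.52 in 2 wk library 2, against -0.50 in 1 wk library 3 and -0.26 to 0.14 in the other 13.

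None of the 10 genes differed from sedentary mice at any duration by the quasi-likelihood test of edgeR at an adjusted p of 0.05. At 24 h that was 0 of 10, beside 0% of the 16126 genes tested. The unadjusted p was under 0.05 for 1 of the 10, against 8.92% of all genes, and 2 of the 10 had libraries that did not overlap with the sedentary ones, against 7.21%. At 1 wk, 0 of 10 passed (0% of all genes), 0 of 10 had an unadjusted p under 0.05 (6.05%) and 0 of 10 were without overlap (4.22%). At 2 wk, 0 of 10 passed (0%), 1 of 10 had an unadjusted p under 0.05 (7.26%) and 1 of 10 was without overlap (4.91%). DESeq2 and limma's voom with quality weights likewise called 0 of the 10 in each of these comparisons. Of all genes, DESeq2 called 0.533%, 0.093% and 0.211% at 24 h, 1 wk and 2 wk, and voom 0.366%, 0.0372% and 0.0434%. At such shares 0 of 10 says little about these genes.

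The intervals bound what could have been missed. Across the 10 genes and 3 durations, the fitted folds over sedentary mice ran from 0.831 to 1.20, and the 95% intervals from 0.63 at their lowest, for Slc34a3 at 2 wk, to 1.38 at their highest, for Slc4a4 at 2 wk. The median log2 fold change of the 10 genes was -0.10 at 24 h, 0.0090 at 1 wk and 0.06 at 2 wk, beside medians of -0.0046, 0.0039 and 0.0084 over all genes tested. At 24 h 4 of the 10 values were positive, against 49% of all genes, at 1 wk 6 of 10, against 51.1%, and at 2 wk 8 of 10, against 52.1%. In bulk cortex, fewer cells of a type and less RNA per cell cannot be told apart, and this holds for every level below.

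**Figure D1:**
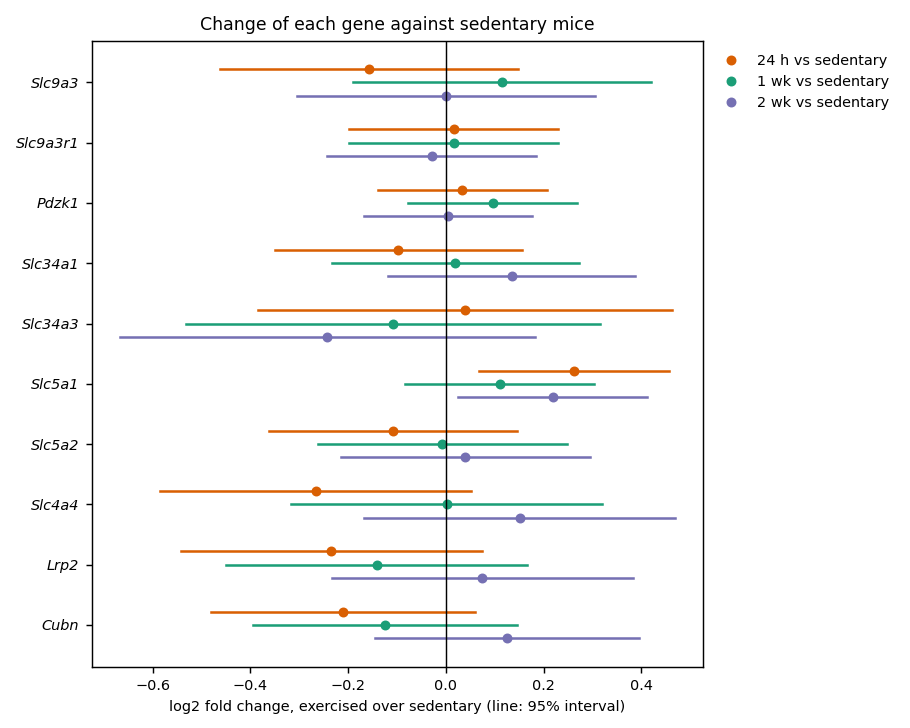
Log2 fold change of each gene at 24 h, 1 wk and 2 wk over sedentary mice (points), with the 95% interval of the edgeR fit (lines) over 4 libraries a group. The line at 0 lies inside the intervals of all genes and durations except Slc5a1 at 24 h and 2 wk, and neither of those passed after adjustment.

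The order of the messages in sedentary cortex was read per kilobase of exon. Slc34a1 led at 1484 ± 186 CPM per kb (SD, n = 4), 3.35 times the next gene, Pdzk1, at 443 ± 20.97. Slc9a3r1 followed at 267 ± 20.2, Slc5a2 at 177 ± 27.5, Lrp2 at 107 ± 12.7 and Slc4a4 at 44.0 ± 1.89 CPM per kb. Cubn stood at 28.5 ± 4.22, Slc34a3 at 21.2 ± 3.54, Slc5a1 at 20.3 ± 0.797 and Slc9a3 at 15.6 ± 0.882 CPM per kb. Neighbours in this order were apart in all 4 sedentary libraries except Cubn and Slc34a3, and Slc34a3 and Slc5a1, whose ranges overlapped. Slc34a1 alone supplied 0.707% of all counts on average over the 16 libraries. The exon lengths are those of all annotated isoforms joined, so a gene expressed mainly as a short isoform is understated on this scale.

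Sodium enters first through Slc9a3 (ENSMUSG00000036123, chromosome 13, 74121457 to 74169442 on GRCm38), which encodes NHE3, the exchanger of luminal sodium for protons. It measured 93.1, 84.2, 83.0 and 83.1 CPM in the sedentary libraries, 74.0, 89.2, 68.3 and 76.4 CPM at 24 h, 80.7, 82.7, 73.8 and 135 CPM at 1 wk, and 81.3, 97.3, 88.1 and 77.1 CPM at 2 wk. The groups overlap, and 1 value stands far out, the 135 CPM of 1 wk library 4, which is also 1 of the 2 libraries high in long transcripts. The log2 fold change was -0.16 ± 0.15 (SE) at 24 h with an adjusted p of 0.796, 0.12 ± 0.15 at 1 wk with an adjusted p of 0.945, and 0.0011 ± 0.15 at 2 wk with an adjusted p of 0.999, by edgeR. Without 1 wk library 4 the value at 1 wk was -0.11, so its sign rests on that library, and without 24 h library 3 the value at 24 h was -0.10.

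Glucose is recovered by Slc5a2 and Slc5a1. Slc5a2 (ENSMUSG00000030781, chromosome 7, 128265657 to 128272430) encodes SGLT2, which takes up the bulk of filtered glucose. It measured 591, 574, 448 and 441 CPM in sedentary libraries, 519, 398, 537 and 452 CPM at 24 h, 525, 506, 529 and 483 CPM at 1 wk, and 589, 598, 461 and 464 CPM at 2 wk. Its groups overlap throughout, and libraries 1 and 2 stand above libraries 3 and 4 by more in the sedentary and in the 2 wk group than any group means stand apart. Its log2 fold change was -0.11 ± 0.12 at 24 h, -0.0072 ± 0.12 at 1 wk and 0.04 ± 0.12 at 2 wk, with adjusted p from 0.843 to 0.999 by edgeR. The value at 24 h was -0.03 without 24 h library 2 or without sedentary library 1, and -0.17 without 24 h library 3 or without sedentary library 4, and that at 2 wk was 0.11 without sedentary library 1. Exons of BC017158 overlap it on the opposite strand, and since the strand setting of the counting is not given, its level is uncertain to that extent.

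Slc5a1 (ENSMUSG00000011034, chromosome 5, 33104219 to 33162870) encodes SGLT1, which recovers in the late segment what SGLT2 has left. It was the gene of the 10 with the smallest p against sedentary mice. It measured 106, 90.1, 114 and 90.5 CPM in the 24 h libraries, against 85.5, 83.5, 78.8 and 85.9 CPM in the sedentary ones. All 4 of the 24 h libraries lay above all 4 sedentary ones, which 3.55% of the genes tested also did. The log2 fold change was 0.26 ± 0.09, a fold of 1.20 with a 95% interval of 1.05 to 1.37, an unadjusted p of 0.0109 and an adjusted p of 0.391 by edgeR. Over the alternatives run the value stayed between 0.19 and 0.31, with adjusted p from 0.202 to 0.916.

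At 2 wk Slc5a1 measured 105, 86.2, 97.2 and 99.9 CPM, again above all 4 sedentary libraries, as did 2.29% of all genes tested. The log2 fold change was 0.22 ± 0.09, a fold of 1.16 with an interval of 1.02 to 1.33, and the adjusted p was 0.636 by edgeR. The 1 wk libraries, at 85.7, 89.5, 83.2 and 102 CPM, overlapped the sedentary ones (0.11 ± 0.09, adjusted p 0.935 by edgeR), and without 1 wk library 4, high in long transcripts, the value was 0.05. The 3 comparisons share their sedentary libraries, whose Slc5a1 levels lie between 78.8 and 85.9 CPM. Over the 4 groups together the adjusted p of Slc5a1 was 0.566, and 0 of the 10 genes passed there, beside 0.0124% of all genes, while 1 of 10 had an unadjusted p under 0.05, beside 8.73%. The exercised groups were not shown to differ from each other in Slc5a1, with adjusted p of 0.826, 0.886 and 0.869 for 1 wk against 24 h, 2 wk against 24 h and 2 wk against 1 wk by edgeR.

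The segments in which the glucose transporters lie were followed by their markers. At 24 h the 8 markers of the late segment summed to 5711 to 8271 CPM, against 7146 to 7759 CPM in sedentary libraries, and 4 of the 8 had a positive value with a median of -0.01. The 8 markers of the early segments summed to 36488 to 44329 CPM at 24 h, against 42743 to 48382 CPM in sedentary libraries, with 1 of 8 positive and a median of -0.17. Kap supplied most of these early sums, averaging 34436 ± 3581 CPM at 24 h and 40403 ± 2358 CPM in sedentary libraries. The early sums thus mostly follow Kap and do not measure the early segments as a whole. Within the 24 h group the late markers summed to 5821, 8149, 5711 and 8271 CPM in libraries 1 to 4. Libraries 1 and 3, the highest in Slc5a1, were thus the lowest in this sum. Slco1a6 and Cyp7b1 of the late list varied little at 24 h, at 171 ± 9.80 and 300 ± 8.19 CPM. The sums therefore differed mainly through other genes of the list, and not all its markers moved with the sum. The podocyte markers summed to 326, 196, 331 and 229 CPM in 24 h libraries 1 to 4. Also at 24 h, the 6 injury markers summed to 362 to 482 CPM, against 207 to 339 CPM in sedentary libraries, without overlap. Clu supplied most of these sums, averaging 408 ± 44.0 CPM at 24 h and 266 ± 57.4 CPM in sedentary libraries. The mitochondrial share given above was lower at 24 h. The part of these lists and of that share in the values of Slc5a1 was not tested.

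**Figure D2:**
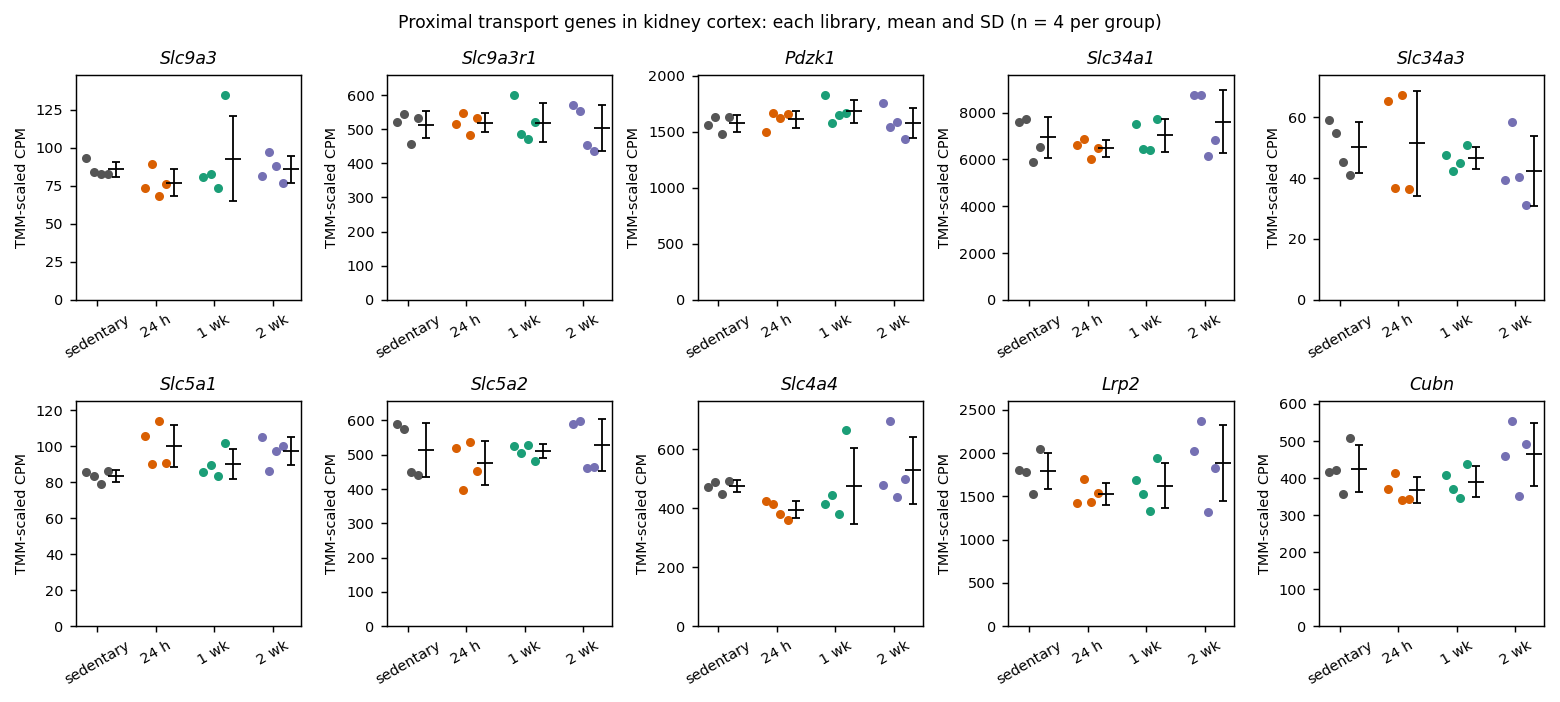
CPM (TMM-scaled) of the 10 genes in each library, by group from sedentary to 2 wk, with the mean and SD beside the 4 points. Slc5a1 at 24 h and 2 wk lies above its sedentary libraries and Slc4a4 at 24 h lies below its own, while single libraries stand high in Slc9a3 at 1 wk and Slc4a4 at 1 wk and 2 wk.

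Phosphate is taken up by Slc34a1 and Slc34a3. Slc34a1 (ENSMUSG00000021490, chromosome 13, 55398187 to 55415592) encodes NaPi-IIa, the main phosphate transporter of the adult mouse tubule. It measured 7599, 7712, 5905 and 6537 CPM in sedentary libraries, 6605, 6864, 5999 and 6479.5 CPM at 24 h, 7505, 6459, 6414 and 7742 CPM at 1 wk, and 8737, 8754, 6146 and 6829.6 CPM at 2 wk. The highest libraries are 2 of the 2 wk group and the lowest is sedentary, and all groups overlap. Its log2 fold change was -0.10 ± 0.12 at 24 h, 0.02 ± 0.12 at 1 wk and 0.13 ± 0.12 at 2 wk, with adjusted p of 0.858, 0.996 and 0.819 by edgeR. The value at 2 wk was 0.06 without 2 wk library 1, without 2 wk library 2 or without sedentary library 3, and 0.22 without 2 wk library 3, and that at 24 h was -0.16 without sedentary library 3. Exons of Pfn3 overlap it on the opposite strand.

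Slc34a3 (ENSMUSG00000006469, chromosome 2, 25228898 to 25234364, minus strand) encodes NaPi-IIc, a phosphate transporter that in humans is linked to hereditary rickets with hypercalciuria. It measured 59.2, 54.8, 45.2 and 41.1 CPM in sedentary libraries, 65.4, 36.9, 67.3 and 36.2 CPM at 24 h, 47.7, 42.3, 45.1 and 50.8 CPM at 1 wk, and 39.3, 58.5, 40.2 and 31.1 CPM at 2 wk. It was the most variable of the 10 from library to library, with a highest level 2.16 times its lowest. In the 24 h group, libraries 1 and 3 hold the highest values of the 16 and libraries 2 and 4 lie below all sedentary values, and the same libraries 1 and 3 were the higher ones of that group in Slc5a1 and Slc5a2. Its log2 fold change was 0.04 ± 0.20 at 24 h, -0.11 ± 0.20 at 1 wk and -0.24 ± 0.20 at 2 wk, with adjusted p of 0.971, 0.971 and 0.801 by edgeR. The value at 24 h was -0.12 without 24 h library 3 and 0.18 without 24 h library 4, that at 1 wk was -0.02 without sedentary library 1 and -0.19 without sedentary library 4, and that at 2 wk was -0.44 without 2 wk library 2 and -0.12 without 2 wk library 4.

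The promoters of 3 of the genes are shown because they mark the range of the set: Slc34a1 has its highest message, Pdzk1 the next, and Slc5a1 the smallest p against sedentary mice. The sequences are from RefSeq on GRCm38.p6, from 250 bases before to 50 after the start of a transcript, plus strand, at chr13:55399398-55399697 for Slc34a1, chr3:96829815-96830114 for Pdzk1 and chr5:33103969-33104268 for Slc5a1. Capitals mark a match to the HNF4 motif CAAAGTCCA on either strand, which only Pdzk1 of these 3 has. The Slc34a1 start used is downstream of the start of the annotated gene given above, and so is the Pdzk1 start with respect to the gene start given below.
Slc34a1: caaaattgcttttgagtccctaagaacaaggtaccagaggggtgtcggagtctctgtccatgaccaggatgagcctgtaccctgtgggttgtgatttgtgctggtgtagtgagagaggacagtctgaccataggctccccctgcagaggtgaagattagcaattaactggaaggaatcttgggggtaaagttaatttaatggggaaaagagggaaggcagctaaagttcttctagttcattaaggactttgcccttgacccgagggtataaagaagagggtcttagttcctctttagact
Pdzk1: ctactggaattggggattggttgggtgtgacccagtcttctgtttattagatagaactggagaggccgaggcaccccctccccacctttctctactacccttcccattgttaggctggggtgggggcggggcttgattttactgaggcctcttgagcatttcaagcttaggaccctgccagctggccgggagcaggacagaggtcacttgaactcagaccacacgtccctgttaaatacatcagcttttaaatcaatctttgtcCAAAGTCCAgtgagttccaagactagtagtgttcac
Slc5a1: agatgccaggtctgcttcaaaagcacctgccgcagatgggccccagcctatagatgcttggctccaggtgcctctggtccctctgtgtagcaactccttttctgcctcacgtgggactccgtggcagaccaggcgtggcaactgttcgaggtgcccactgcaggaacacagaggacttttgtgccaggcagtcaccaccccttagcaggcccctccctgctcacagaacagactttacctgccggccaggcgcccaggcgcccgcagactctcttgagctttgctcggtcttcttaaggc

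RefSeq rows were found for 9 of the 10 genes, 11 promoters in all. On both strands, CAAAGTCCA was present in 1 of the 11, Pdzk1, at base 15 after its start, and in 0.475% of 32851 promoters of the same length. The glucocorticoid receptor motif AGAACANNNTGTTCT was found in 0 of the 11 and in 0.00913% of all promoters. These matches describe letters in a window and no binding was measured.

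The brush-border scaffolds varied least of the 10 genes over the 16 libraries, by 1.28 times between the lowest and highest library in Pdzk1 and 1.38 times in Slc9a3r1. Slc9a3r1 (ENSMUSG00000020733, chromosome 11, 115163341 to 115181181) encodes NHERF1, a PDZ protein that tethers NaPi-IIa and NHE3. It measured 521, 544, 457 and 533 CPM in sedentary libraries, 515, 547, 483 and 532 CPM at 24 h, 600.4, 485, 471 and 522 CPM at 1 wk, and 571, 553, 454 and 436 CPM at 2 wk. Pdzk1 (ENSMUSG00000038298, chromosome 3, 96829284 to 96870926) encodes a related scaffold with several PDZ domains. Pdzk1 measured 1556, 1635, 1476 and 1628 CPM in sedentary libraries, 1501, 1664, 1626 and 1654 CPM at 24 h, 1828, 1581, 1653 and 1666 CPM at 1 wk, and 1754, 1543, 1586 and 1432 CPM at 2 wk. Both scaffolds overlap between all groups. The 95% interval of Pdzk1 reached from 0.909 to 1.15 at 24 h, from 0.948 to 1.20 at 1 wk and from 0.890 to 1.13 at 2 wk, the narrowest of the 10 genes, and that of Slc9a3r1 from 0.845 at its lowest to 1.17 at its highest. Exons of Gpr89, Cd160 and 4930442L01Rik lie on the opposite strand of Pdzk1.

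Bicarbonate leaves the cell through Slc4a4 (ENSMUSG00000060961, chromosome 5, 88886818 to 89239653), which encodes the basolateral sodium-bicarbonate cotransporter NBCe1. It measured 426, 414, 380.1 and 362 CPM in the 24 h libraries, against 471, 490.2, 449 and 493 CPM in the sedentary ones. All 4 of the 24 h libraries lay below all 4 sedentary ones, as did 3.66% of all genes tested. The log2 fold change was -0.27 ± 0.15, a fold of 0.831 with an interval of 0.667 to 1.04 and an adjusted p of 0.633 by edgeR. Over the alternatives the value lay between -0.30 and -0.22, with adjusted p from 0.168 to 0.941. The mitochondrial share was lower and the summed injury markers, mostly Clu, were higher in the same 24 h libraries. Their part in this value was not tested.

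At 1 wk Slc4a4 measured 414, 445, 381 and 665 CPM and at 2 wk 480.5, 695, 437 and 500.4 CPM. Its values of 665 and 695 CPM are those of the 2 libraries high in long transcripts, and its own exons span 10815 bases. The log2 fold change over sedentary mice was 0.0021 ± 0.15 at 1 wk and 0.15 ± 0.15 at 2 wk (adjusted p 1.00 and 0.837 by edgeR), and without both libraries it was -0.20 and -0.01. Without 2 wk library 3 the value at 2 wk was 0.23.

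Filtered proteins are taken up by the endocytic receptors Lrp2 and Cubn. Lrp2 (ENSMUSG00000027070, chromosome 2, 69424340 to 69586065, minus strand) encodes megalin, the scavenger receptor for filtered proteins and vitamin carriers. It measured 1809, 1785, 1527 and 2047 CPM in sedentary libraries, 1423, 1698, 1436 and 1537 CPM at 24 h, 1689, 1527, 1333 and 1947 CPM at 1 wk, and 2025, 2367, 1322 and 1832 CPM at 2 wk. Cubn (ENSMUSG00000026726, chromosome 2, 13276338 to 13491813, minus strand) encodes cubilin, its partner. Cubn measured 416, 421, 356 and 509 CPM in sedentary libraries, 371, 414, 341 and 345 CPM at 24 h, 408, 370.1, 346 and 438 CPM at 1 wk, and 459.8, 553, 351 and 492 CPM at 2 wk. In both, the 2 wk group holds the highest library of the 16, library 2, and library 3 of that group is low, so that the 2 wk spread covers most of the range of the other groups. The log2 fold change at 24 h was -0.23 ± 0.15 for Lrp2 and -0.21 ± 0.13 for Cubn, with adjusted p of 0.671 and 0.660 by edgeR, and without sedentary library 4 that of Cubn was -0.11. At 1 wk it was -0.14 ± 0.15 for Lrp2 and -0.12 ± 0.13 for Cubn (adjusted p 0.937 each by edgeR), and without both libraries high in long transcripts -0.24 and -0.19. Without sedentary library 4 these 1 wk values were -0.07 and -0.02. At 2 wk it was 0.07 ± 0.15 for Lrp2 and 0.12 ± 0.13 for Cubn, with adjusted p of 0.932 and 0.841 by edgeR. Without 2 wk library 2 these were -0.06 and 0.03, and without 2 wk library 3 they were 0.21 and 0.24. Gm13270 exons overlap Cubn on the opposite strand.

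Between durations, 2 wk against 24 h held the largest values of the set. By edgeR 0 of the 10 genes passed, against 0.0124% of all genes tested, 3 of the 10 had an unadjusted p under 0.05, against 9.61%, and 1 of the 10 was without overlap, against 3.26%. Slc4a4 was higher in all 4 of the 2 wk libraries than in all 4 of the 24 h ones, as were 1.7% of all genes, with a log2 fold change of 0.42 ± 0.15 and an adjusted p of 0.435 by edgeR. Without 2 wk library 2, which is high in long transcripts, it was 0.25. Cubn gave 0.34 ± 0.13 with an adjusted p of 0.450, and Lrp2 0.31 ± 0.15 with an adjusted p of 0.520, by edgeR, and Lrp2 was 0.18 without that library. Over the alternatives the value of Cubn lay between 0.23 and 0.45. The 2 wk library 2 also has the highest total, 66852397 counts, and the highest level of the 16 in 5 of the 10 genes. Slc9a3 at 1 wk against 24 h was 0.27, and 0.04 without 1 wk library 4. Between 1 wk and 24 h, 0 of 10 passed (0% of all genes), 0 of 10 had an unadjusted p under 0.05 (7.15%) and 0 of 10 were without overlap (2.92%). Between 2 wk and 1 wk the same counts were 0 (0%), 0 (4.58%) and 0 (1.59%).

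**Figure D3:**
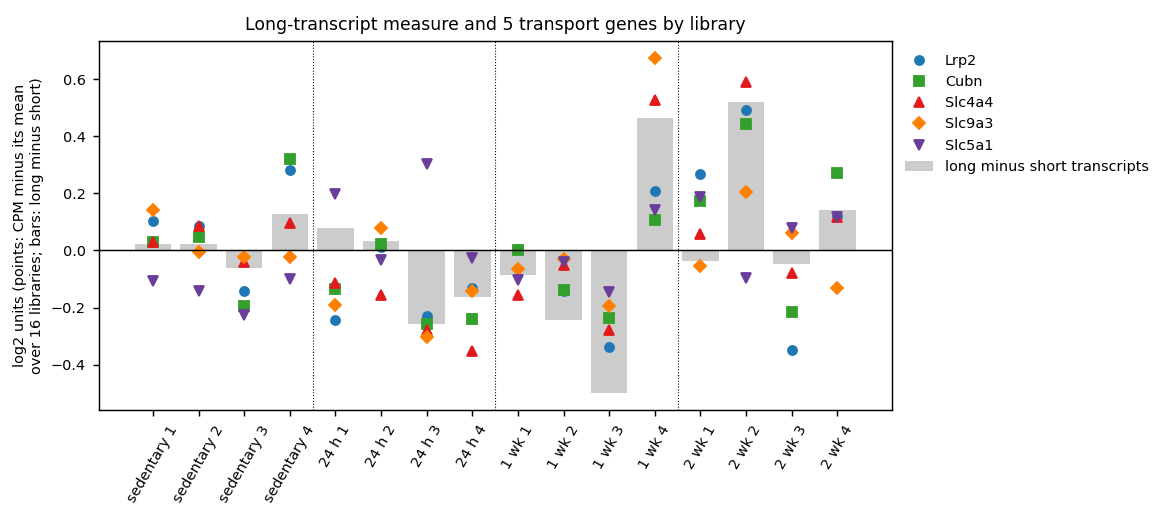
Log2 CPM of Lrp2, Cubn, Slc4a4, Slc9a3 and Slc5a1 in each library minus the mean over 16 libraries (points), with the length measure of each library as bars, from sedentary to 2 wk. In 1 wk library 4 and 2 wk library 2, at 0.46 and 0.52 on the length measure, Slc4a4, Slc9a3, Lrp2 and Cubn stand above their means. In 1 wk library 4 Slc9a3 lies at 0.68, and Lrp2 and Cubn, with 16701 and 14935 exon bases, at 0.21 and 0.11. Slc5a1 lies at 0.14 in 1 wk library 4 and at -0.095 in 2 wk library 2. The part of transcript length in these levels was not tested.

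Because a ratio of genes within a library does not depend on library size, 5 ratios were compared with sedentary mice at 3 durations, 15 exact permutation tests in all. With 4 libraries against 4, 70 arrangements exist and the smallest p they can give is 0.0286. Slc5a1 counts per 100 Slc5a2 counts were 20.4, 22.6, 21.2 and 20.03 at 24 h, against 14.5, 14.5, 17.6 and 19.5 in sedentary libraries. The groups do not overlap. The mean was 21.1 ± 1.16 at 24 h and 16.5 ± 2.44 in sedentary mice (SD, n = 4 each), with a two-sided exact p of 0.0286, the smallest possible, and an adjusted p of 0.429 over the 15 tests. A ratio alone at the smallest p could not pass after adjustment over 15 tests, so the adjusted value does not show that the ratio was unchanged. At 1 wk the same ratio was 17.7 ± 2.38 and at 2 wk 18.7 ± 3.30, both overlapping the sedentary libraries.

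Slc34a3 counts per 100 Slc34a1 counts were 0.45, 0.669, 0.654 and 0.455 at 2 wk, against 0.779, 0.711, 0.765 and 0.629 in sedentary libraries. These groups overlap (exact permutation p 0.0857, adjusted 0.600), and at 24 h the libraries split widely at 0.989, 0.537, 1.12 and 0.559. The scaffolds kept a close ratio, with 32.3 ± 1.93, 30.8 ± 1.81 and 31.9 ± 3.09 Slc9a3r1 counts per 100 Pdzk1 counts at 24 h, 1 wk and 2 wk, against 32.6 ± 1.14 in sedentary mice. Cubn per 100 Lrp2 counts was 24.2 ± 1.52, 24.2 ± 1.39 and 24.9 ± 2.13 at the 3 durations, against 23.7 ± 0.820 in sedentary mice, although both genes ranged widely. Slc9a3 per 100 Slc4a4 counts was 19.5 ± 2.16, 19.4 ± 0.703 and 16.6 ± 2.64, against 18.1 ± 1.33 in sedentary mice. Adjusted p over these 4 ratios and the 3 durations ran from 0.600 to 0.771 in exact permutation tests.

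**Figure D4:**
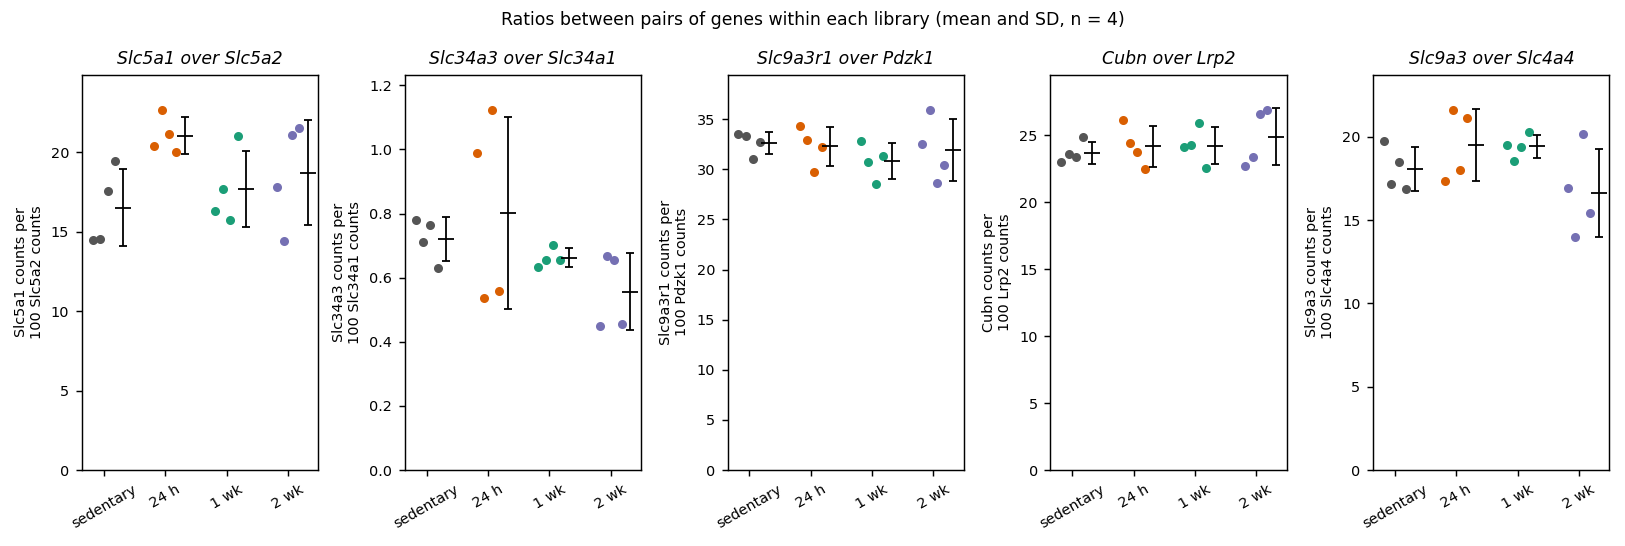
Ratios of counts within each library for 5 pairs of genes, by group from sedentary to 2 wk, with the mean and SD beside the 4 points. All 4 of the 24 h libraries lie above the sedentary ones in Slc5a1 over Slc5a2, and the groups overlap in the other 4 ratios.

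The genes whose log2 levels over the 16 libraries ran most like those of 4 of the set were sought among the 8919 genes that averaged 3 or more in log2 CPM. For Slc34a1 they were Xylb (Pearson r 0.951, Spearman rho 0.962), Wbp2 (r 0.940, rho 0.938) and Atg7 (r 0.936, rho 0.932). Lrp2 was followed by Akap9 (r 0.967, rho 0.971), Wdr26 (r 0.949, rho 0.926) and Lpp (r 0.941, rho 0.941). For Slc9a3 they were Thtpa (r 0.934, rho 0.959), Esrp2 (r 0.923, rho 0.779) and Gk5 (r 0.922, rho 0.871). Slc5a2 had its nearest in Habp2 (r 0.846, rho 0.824), Rdh11 (r 0.831, rho 0.794) and Mkln1 (r 0.830, rho 0.762). These are the highest of 8919 values each, over libraries that differ in depth and in the length measure, and are given as a description.

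The partners of the 10 genes in the same cells were also followed, and 0 of 149 genes on the other lists, cell type markers included, passed in any comparison by edgeR. At an unadjusted p under 0.05, edgeR had 18 of the 149 at 24 h (12.1%, against 8.92% of all genes), 20 at 1 wk (13.4%, against 6.05%) and 19 at 2 wk (12.8%, against 7.26%). It had 26 at 1 wk against 24 h (17.4%, against 7.15%) and 36 at 2 wk against 24 h (24.2%, against 9.61%). At 2 wk against 1 wk it had 8 (5.37%, against 4.58%). The lists were chosen with earlier results of these data known, so these shares do not test the lists. At 24 h DESeq2 and voom with quality weights both called 7, the 6 mitochondrially encoded genes tested and the late-segment marker Slco1a6, where they called 0.533% and 0.366% of all genes. At 1 wk neither called any of the 149 (0.093% and 0.0372% of all genes). At 2 wk DESeq2 called 3, Foxi1, Scnn1g and Clu (0.211% of all genes), and voom 2, Foxi1 and Scnn1g (0.0434%). At 1 wk against 24 h DESeq2 called 3, Cd68, mt-Cytb and mt-Nd2 (0.366%), and voom 0 (0%). At 2 wk against 24 h DESeq2 called 6, Cyp7b1 and 5 mitochondrially encoded genes (0.242%), and voom 0 (0.0248%). Over the 4 groups DESeq2 called 11 (1.01%) and voom 7 (0.211%), and between 2 wk and 1 wk neither called any. Of the 16 partners on the first list, 4 were positive at 24 h, 8 at 1 wk and 8 at 2 wk. Slc13a3, a dicarboxylate transporter, averaged 1298 ± 198 CPM at 2 wk and 1101 ± 90.2 CPM in sedentary mice (log2 fold change 0.24 ± 0.12, adjusted p 0.688 by edgeR), and Slc13a2, which carries citrate, 76.3 ± 10.3 and 67.0 ± 9.14 CPM in the same groups. Of the 12 genes listed for basolateral exit and bicarbonate handling, 7, 7 and 9 were positive at the 3 durations. Kcnj16, a potassium channel subunit, averaged 433 ± 22.1 CPM at 24 h and 513 ± 41.2 CPM in sedentary mice (-0.24 ± 0.10, adjusted p 0.485 by edgeR), and Car2, a cytosolic carbonic anhydrase, 431 ± 50.1 CPM at 1 wk and 350.2 ± 19.8 CPM in sedentary mice (0.30 ± 0.11, adjusted p 0.658 by edgeR).

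Of the 18 scaffolds and regulators, 6, 10 and 13 were positive at 24 h, 1 wk and 2 wk. Dpp4, a brush-border peptidase that associates with NHE3, averaged 48.6 ± 1.01 CPM at 24 h and 57.7 ± 2.76 CPM in sedentary mice (-0.25 ± 0.07, adjusted p 0.298 by edgeR). Nedd4l, a ubiquitin ligase best known for removing the epithelial sodium channel, averaged 90.5 ± 9.74 CPM at 2 wk and 70.6 ± 6.43 CPM in sedentary mice (0.36 ± 0.10, adjusted p 0.357 by edgeR). Of the 14 endocytic partners, 5, 8 and 7 were positive, and their examples, the chloride-proton exchanger gene Clcn5 and the clathrin heavy chain gene Cltc, had adjusted p of 0.619 or above against sedentary mice by edgeR. Of the 8 proximal transcription factors, 4, 4 and 5 were positive. Among them Maf had adjusted p of 0.707 or above against sedentary mice.

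Among the segment markers, Slco1a6 of the late segment averaged 171 ± 9.80 CPM at 24 h and 233 ± 19.1 CPM in sedentary mice (-0.45 ± 0.10, adjusted p 0.162 by edgeR). At 2 wk it averaged 182 ± 23.6 CPM. Cyp7b1 of the same list averaged 210.0 ± 35.2 CPM at 2 wk and 279 ± 51.4 CPM in sedentary mice (-0.41 ± 0.13, adjusted p 0.408 by edgeR). Of the early markers, Slc22a8 averaged 519 ± 23.02 CPM at 24 h and 677 ± 90.2 CPM in sedentary mice (-0.38 ± 0.18, adjusted p 0.565 by edgeR), and Kap had adjusted p of 0.636 or above against sedentary mice. Pck1, the gluconeogenic enzyme of the proximal tubule, averaged 1986 ± 644 CPM at 2 wk and 1346 ± 136 CPM in sedentary mice (0.56 ± 0.18, adjusted p 0.429 by edgeR), while Keg1 had adjusted p of 0.839 or above against sedentary mice. Of the 8 pan-proximal genes 3, 4 and 5 were positive.

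Other cell types were measured beside these values. At 2 wk the 5 intercalated cell markers summed to 204 to 259 CPM, against 161 to 199 CPM in sedentary libraries, without overlap, and 5 of 5 were positive, led by Foxi1 (0.82 ± 0.14, adjusted p 0.0591 by edgeR) and Slc26a4 (0.39 ± 0.14, adjusted p 0.542 by edgeR). The 5 distal convoluted tubule markers summed to 1083 to 1381 CPM at 2 wk, against 714 to 1057 CPM, with 4 of 5 positive, and the 6 principal cell markers to 354 to 630 CPM, against 349 to 440.1 CPM, with 6 of 6 positive. Slc12a3, Wnk1, Scnn1g and Scnn1b, the examples of these lists, had log2 fold changes of 0.49, 0.39, 0.57 and 0.54 at 2 wk, with adjusted p of 0.360, 0.560, 0.185 and 0.357 by edgeR. The 6 thick ascending limb markers, a segment that also expresses Slc9a3, summed to 3304 to 5304 CPM at 2 wk, against 3966 to 4755 CPM in sedentary libraries, with 2 of 6 positive, and Cldn10 and Slc12a1 among them had adjusted p of 0.714 or above against sedentary mice.

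The 6 endothelial markers summed to 148 to 183 CPM at 1 wk, against 195 to 232 CPM in sedentary libraries, with 0 of 6 positive, and Emcn and Kdr there had log2 fold changes of -0.45 and -0.52 with adjusted p of 0.548 and 0.499 by edgeR. The 6 macrophage markers, with 0 of 6 positive at 1 wk and 2 wk and 5 of 6 at 24 h, included Cd68 and C1qb with adjusted p of 0.539 or above against sedentary mice. The 5 T cell markers, all at low levels, summed to 2.34 to 3.17 CPM at 2 wk, against 3.40 to 4.70 CPM, and Cd3e and Lck had adjusted p of 0.485 or above against sedentary mice. The 6 podocyte markers (Nphs1 among them) summed to 196 to 331 CPM at 24 h, against 222 to 280 CPM, with 6 of 6 positive, and the 5 inner medulla markers (Aqp4 and Slc14a1 among them) to 64.0 to 101 CPM, against 94.1 to 117 CPM, with 0 of 5 positive. The 6 injury markers were positive in 6 of 6 at 24 h, with a median log2 fold change of 0.81, in 4 of 6 at 1 wk, with a median of 0.43, and in 3 of 6 at 2 wk, with a median of -0.05, beside the medians near 0 given above for all genes. They summed to 339 to 483 CPM at 1 wk and 311 to 725 CPM at 2 wk, with Clu supplying most of each sum. The 2 wk libraries overlapped the sedentary ones. Clu led them with 503 ± 169 CPM at 2 wk and 266 ± 57.4 CPM in sedentary mice (0.92 ± 0.20, adjusted p 0.232 by edgeR), and Vcam1 had adjusted p of 0.697 or above against sedentary mice. Of 8 mitochondrially encoded genes, 6 were tested and 0 of 6 were positive at 24 h, where mt-Cytb had a log2 fold change of -0.83 ± 0.15 and mt-Nd2 of -0.77 ± 0.15 (adjusted p 0.0972 each by edgeR). The part of these cell types in the levels of the 10 genes was not tested.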

How the data were processed

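Titles and treatment labels gave the groups. The authors deposited raw read counts for each gene, made with HTSeq 0.10.0 after FastQC 0.10.1 on the build GRCm38 (mm10) as named in the submitters' processing notes. No aligner, annotation release or strand setting is stated there. Of 24 columns of counts, 8 match no sample and were not used. Libraries were made with a strand-marking polyadenylated RNA kit, per the labels' protocols. Symbols were matched by ID to GENCODE M21.

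All 16126 genes that passed filterByExpr entered 1 edgeR 4.0.16 fit (R 4.3.3) of the 16 libraries, with TMM scaling, the robust quasi-likelihood F-test and Benjamini-Hochberg adjustment at 0.05. CPM is TMM-scaled, and log2 levels for likeness and length use a prior count of 2. Values after ± are SD for levels, and SE where they follow a log2 fold change. The alternatives were DESeq2 1.42.0, limma 3.58.1 voom, RLE scaling, other count filters, a fit of 2 groups, a replicate block and leaving out libraries. The scripts were tested on simulated counts. In all 24 pairs of libraries within a group, a chi-square statistic over counts was at least 7.88 times its degrees of freedom, so none was taken as a duplicate.

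The genes, lists and tests were chosen with earlier results of these data known. All 10 genes are named in every comparison, the 2 genes of smallest p over the 4 groups from each other list, and for 4 genes the 3 of highest Pearson r. A few results under this rule are not reported here. Depth and the number of libraries limit precision, and the intervals cover the spread between libraries.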

Additional observations from a re-analysis of the deposited data

Results flagged for a closer look

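Dixon's test was applied to 60 groups of 4 libraries, where chance flags about 1 in 20. Slc9a3 at 1 wk was marked because 1 library, at 135 CPM, stood apart from the other 3, at 73.8 to 82.7 CPM, with a gap of 0.854 of the range, above the critical value for 4 samples. Slc9a3 in the sedentary group was marked because library 1, at 93.1 CPM, stood apart from the other 3, at 83.0 to 84.2 CPM, with a gap of 0.887 of the range. Without 1 wk library 4 the log2 fold change of Slc9a3 at 1 wk was -0.11, against 0.12 with it, and without sedentary library 1 it was 0.16.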

How the results depend on the processing

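Counts of the 10 genes called stayed at 0 under the alternatives run, and the smallest adjusted p of any of them was 0.155, for Cubn at 2 wk against 24 h without 2 wk library 3. Of 960 alternative log2 fold changes, 85 changed sign, none larger than 0.205 in size, in 23 of the 60 values. Over all genes, edgeR called 0 in each comparison but 2 wk against 24 h and the 4 groups together, with 2 each. The counts that moved were these. With no low-count filter, edgeR called 9 in 24 h against sedentary, 5 in 2 wk against sedentary, 8 in 2 wk against 24 h and 10 in the 4 groups together. DESeq2 called 86 in 24 h against sedentary, 15 in 1 wk against sedentary, 34 in 2 wk against sedentary, 59 in 1 wk against 24 h, 39 in 2 wk against 24 h, 4 in 2 wk against 1 wk and 163 in the 4 groups together. Voom with quality weights called 59 in 24 h against sedentary, 6 in 1 wk against sedentary, 7 in 2 wk against sedentary, 4 in 2 wk against 24 h, 1 in 2 wk against 1 wk and 34 in the 4 groups together. In a fit of the 2 groups compared edgeR called 28 in 24 h against sedentary and 2 in 2 wk against sedentary. With the replicate block edgeR called 5 in 2 wk against sedentary, 11 in 2 wk against 24 h and 5 in the 4 groups together. Without both libraries high in long transcripts edgeR called 10 in 2 wk against sedentary and 0 in the 4 groups together. With at least 1 CPM in 4 libraries edgeR called 4 in 2 wk against 24 h. These log2 fold changes changed sign. By voom with quality weights, the value was Slc34a3 -0.15 in 24 h against sedentary, Slc9a3 -0.047, Slc9a3r1 -0.040, Slc34a1 -0.073 and Slc4a4 -0.14 in 1 wk against sedentary, Slc9a3 -0.055, Pdzk1 -0.046 and Slc5a2 -0.046 in 2 wk against sedentary, Slc5a1 0.013 in 2 wk against 24 h and Slc5a2 -0.016 in 2 wk against 1 wk. With RLE scaling, the value was Slc5a2 0.00094 in 1 wk against sedentary and Slc9a3r1 0.0011 in 1 wk against 24 h. With no low-count filter, the value was Slc4a4 -0.0041 in 1 wk against sedentary. By DESeq2, the value was Slc5a2 0.00094 in 1 wk against sedentary and Slc9a3r1 0.0011 in 1 wk against 24 h. With the replicate block, the value was Slc5a2 0.0020 and Slc4a4 -0.013 in 1 wk against sedentary. Without both libraries high in long transcripts, the value was Slc9a3 -0.12, Slc34a1 -0.033, Slc5a2 0.016 and Slc4a4 -0.20 in 1 wk against sedentary, Slc9a3 -0.066, Slc5a2 -0.028, Slc4a4 -0.011 and Lrp2 -0.056 in 2 wk against sedentary, Lrp2 -0.0095 in 1 wk against 24 h, Slc5a1 0.0064 in 2 wk against 24 h, and Slc9a3 0.056 and Slc5a2 -0.044 in 2 wk against 1 wk. With at least 1 CPM in 4 libraries, the value was Slc9a3 -0.0086 and Pdzk1 -0.0048 in 2 wk against sedentary. In a fit of the 2 groups compared, the value was Slc9a3 -0.0021 in 2 wk against sedentary. Leaving out each library in turn gave 0 to 2 genes in 1 wk against 24 h, 0 to 1 gene in 1 wk against sedentary, 0 to 7 genes in 2 wk against 24 h, 0 to 8 genes in 2 wk against sedentary and 0 to 5 genes in the 4 groups together. For 1 wk against 24 h the ranges were -0.0061 to 0.18 for Lrp2, -0.28 to 0.0091 for Slc34a3 and -0.076 to 0.045 for Slc9a3r1. For 2 wk against sedentary the ranges were -0.056 to 0.21 for Lrp2, -0.050 to 0.049 for Pdzk1, -0.010 to 0.23 for Slc4a4, -0.029 to 0.11 for Slc5a2, -0.065 to 0.050 for Slc9a3 and -0.094 to 0.035 for Slc9a3r1. For 2 wk against 24 h the ranges were -0.084 to 0.015 for Pdzk1, -0.095 to 0.024 for Slc5a1 and -0.11 to 0.019 for Slc9a3r1. For 1 wk against sedentary the ranges were -0.047 to 0.076 for Slc34a1, -0.20 to 0.096 for Slc4a4, -0.069 to 0.067 for Slc5a2, -0.11 to 0.21 for Slc9a3 and -0.061 to 0.061 for Slc9a3r1. For 24 h against sedentary the ranges were -0.12 to 0.18 for Slc34a3 and -0.032 to 0.049 for Slc9a3r1. For 2 wk against 1 wk the ranges were -0.015 to 0.34 for Slc4a4, -0.024 to 0.11 for Slc5a2, -0.21 to 0.11 for Slc9a3 and -0.11 to 0.032 for Slc9a3r1. The log2 ratios ranged over -0.0043 to 0.064 for Cubn over Lrp2 (1 wk against sedentary), -0.011 to 0.062 for Cubn over Lrp2 (24 h against sedentary), -0.11 to 0.25 for Slc34a3 over Slc34a1 (24 h against sedentary), -0.046 to 0.023 for Slc9a3r1 over Pdzk1 (24 h against sedentary) and -0.096 to 0.012 for Slc9a3r1 over Pdzk1 (2 wk against sedentary). The cause was not tested for these. Library numbers were checked as pairs. Same-numbered libraries correlated at -0.24 to 0.37, with a median of 0.053, beside -0.022 for libraries of other numbers. The correlation was over 0.1 in 8 of 24 pairs, and 7 of 16 libraries lay closest to their own number. This check cannot settle whether the numbers pair the libraries, and the labels do not say. The alternative without both libraries high in long transcripts was chosen after seeing the data. With 4 libraries a group, differences inside the 95% intervals given were not excluded. Each interval is for a single gene and comparison, without adjustment for the number of genes.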
